A study of Mus musculus with 18 samples.

Results

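The genes described here are *Trp53*, the gene of the transcription factor p53, and 9 genes that p53 is known to activate, *Mdm2*, *Cdkn1a*, *Ccng1*, *Btg2*, *Sesn1*, *Trp53inp1*, *Zmat3*, *Eda2r* and *Phlda3*. The 10 genes were chosen by name, with earlier results of these data known. All 10 were found among the 45706 genes of the count files, of which 30346 had a read in at least 1 of 18 kidneys. RNA was sequenced from whole kidneys of C57BL/6 mice (C57BL/6J in the methods) in 4 groups. The *Cxcl12* KO kidneys (n = 5) came from mice with floxed *Cxcl12* alleles, the Pax8rtTA transgene and TetOcre, and the *Cxcl12* control kidneys (n = 3) from mice with the same floxed alleles and Pax8rtTA but no TetOcre. The *Myc* KO (n = 5) and *Myc* control (n = 5) kidneys had the same design with floxed *Myc* (called Cmyc F/F in the labels). Sample titles call the controls WT although they carried the floxed alleles and Pax8rtTA. The methods give 10 to 12 weeks as the age of the males used for injury, and the paper's results section gives a younger age at doxycycline treatment. KO and control mice alike received doxycycline for 14 days, with a washout of 1 week. The renal vessels on both sides were then clamped for 22.5 min, and kidneys were taken after 12 h of reperfusion. Pax8rtTA drives the recombinase in tubule cells, so the floxed gene stays intact in vessels, leukocytes and interstitial cells of a KO kidney. No uninjured kidney was among the samples, so each level below is a level after injury.

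p53 is held at a low level by MDM2, a ubiquitin ligase that marks it for degradation, and is stabilised when DNA damage, hypoxia or nucleolar stress activates kinases or ribosomal proteins that block MDM2. Stabilised p53 binds a DNA element made of paired half-sites and raises transcription of genes for cell cycle arrest, DNA repair, redox control and apoptosis, *Mdm2* among them, which closes a feedback loop. Most of this control acts on the p53 protein, so the *Trp53* mRNA alone does not report p53 activity. In ischemic kidney, p53 activity in tubule cells is a known part of the injury response, and *Cdkn1a*, which encodes the cyclin-dependent kinase inhibitor p21, is a widely used marker of it.

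Promoter sequence was searched for the p53 element because all 9 targets are named for that factor. It was also searched for the canonical E-box CACGTG, the element bound by MYC with its partner MAX, because one cohort lost *Myc*. The E-box search was added after the data were seen, so its matches are a description and not a test of control by MYC. RefSeq promoter windows on GRCm38.p6, from 250 bases before to 50 bases after a transcription start, were given for 8 of the 10 genes in 10 windows, and *Zmat3* and *Trp53inp1* had none. Both strands were read. A p53 half-site is the consensus decamer of the factor with no mismatch, and a full site is a pair of adjoining half-sites with no spacer and at most 2 mismatches outside the fixed C and G positions, so a full site can hold half-sites. A half-site stood in 5 of the 10 windows (50%), in *Trp53*, *Mdm2*, *Cdkn1a*, *Ccng1* and *Sesn1*, against 8.36% of all 32851 windows. A full site stood in 2 of the 10, in *Cdkn1a* and *Ccng1*, against 0.326%. The E-box stood in 2, in *Trp53* and *Eda2r*, against 7.15% of all windows. The p53 matches are shown with the matching bases in capitals, 5′ to 3′ on the strand of the gene.
Cdkn1a full site, chr17:29090923-29090952, plus strand: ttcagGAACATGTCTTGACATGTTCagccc
Cdkn1a half-site, chr17:29090896-29090925, plus strand: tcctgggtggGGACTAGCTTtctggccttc
Ccng1 full site, chr11:40755457-40755486, minus strand: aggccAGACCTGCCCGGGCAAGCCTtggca
Mdm2 half-site, chr10:117710925-117710954, minus strand: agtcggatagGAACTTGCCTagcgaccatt
Sesn1 half-site, chr10:41887256-41887285, plus strand: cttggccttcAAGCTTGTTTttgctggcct
Trp53 half-site, chr11:69580274-69580303, plus strand: acccacggaaGGACTTGCCCttacttgtta
Each full site had 1 mismatch, and they began 51 bases before the upstream of the 2 starts of *Cdkn1a* and 195 bases before that of *Ccng1*. The E-boxes are shown in the same way, the letters of the motif in capitals.
Trp53 E-box, chr11:69580357-69580386, plus strand: actttcccctccCACGTGctcaccctggct
Eda2r E-box, chrX:97377160-97377177, minus strand: ctgttgttgctaCACGTG
The E-box of *Trp53* lay 10 bases after its start and that of *Eda2r* 44 bases after. These matches are letters in a window and not measured binding, and the windows of *Btg2* and *Phlda3* held none of these motifs.

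Reads on genes numbered 12918220 to 29749500 per kidney. In 6 kidneys under 5% of reads were unmapped, and these had 22437067 or more reads on genes against at most 18006784 in the other 12. They were 2 *Cxcl12* KO, 2 *Myc* KO and 2 *Myc* control kidneys and no *Cxcl12* control kidney, and although the methods mention a correction for batch effects with ComBat, neither labels nor methods say which kidneys form a batch. The targeted genes followed the labels. *Myc* had 26.6 to 37.0 CPM (read counts scaled to library size, by TMM over the 18 kidneys) in *Myc* KO and 79.7 to 117 CPM in *Myc* control kidneys, and *Cxcl12* had 26.3 to 40.9 CPM in *Cxcl12* KO and 44.9 to 60.5 CPM in *Cxcl12* control kidneys. Tubule markers were abundant in every kidney, with summed levels of 3056 to 4868 CPM for 5 proximal tubule genes. In each of the 33 pairs of kidneys within a group, counts differed beyond sampling noise, and each kidney was counted as 1 sample. The labels do not say outright that each kidney came from a different mouse, and p-values measure only the spread between these samples.

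All 10 genes were expressed in all 18 kidneys and passed the filter on low counts in both cohorts. Levels of different genes were compared as CPM per kilobase of exon, averaged over the 18 kidneys. *Cdkn1a* was at 89.1 CPM per kilobase, *Btg2*, an antiproliferative gene that responds quickly to stress, at 80.2 and *Ccng1*, which encodes the cyclin G1 that recruits a phosphatase to MDM2, at 72.5. These 3 overlapped among kidneys, *Cdkn1a* being above *Btg2* in 13 of 18 kidneys and *Btg2* above *Ccng1* in 11 of 18. *Mdm2* followed at 23.1 and was below *Ccng1* in 18 of 18 kidneys. *Trp53inp1*, a stress protein that promotes p53 phosphorylation and autophagy, had 16.2 CPM per kilobase and *Trp53* itself 14.4, and the order of this pair was even, with *Trp53inp1* higher in 9 of 18 kidneys. *Phlda3*, whose product competes with AKT for membrane lipids, had 10.1 CPM per kilobase. *Zmat3*, which encodes an RNA-binding protein, had 5.43 and *Sesn1*, a sestrin of redox and mTORC1 control, 3.85. *Eda2r*, a receptor of the TNF receptor family for the ligand ectodysplasin A2, was lowest at 0.901 CPM per kilobase. Per kilobase, *Cdkn1a* stood 6.51-fold above *Trp53* on average (SD 2.02 over 18 kidneys).

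The spread over the 18 kidneys differed between the genes. *Mdm2* varied least, with a coefficient of variation of 12%, and *Btg2* and *Trp53inp1* most, with 27.4% each. *Eda2r* varied by 23.3% on 39 to 183 reads per kidney, and *Phlda3* by 22.3% on 139 to 448 reads, so these are the genes with the fewest reads behind them together with *Sesn1* (169 to 546 reads). *Cdkn1a* had 3359 to 10282 reads. Its exons share 273 bases with a gene annotated on the opposite strand that is absent from the count files. Since the counts ignore the strand, any reads of that gene in this stretch were counted as *Cdkn1a*. When the 4 groups were ranked by mean level, neighbouring groups overlapped for 8 of the 10 genes throughout. One exception was *Trp53*, where *Myc* KO kidneys were last and apart from *Myc* control kidneys. The other was *Phlda3*, where *Cxcl12* control kidneys were first and apart from *Myc* control kidneys. For all genes, the share with neighbouring groups apart in such a ranking was not counted. These exceptions are therefore a description and are not shown to be unusual among all genes.

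**Figure D1:**
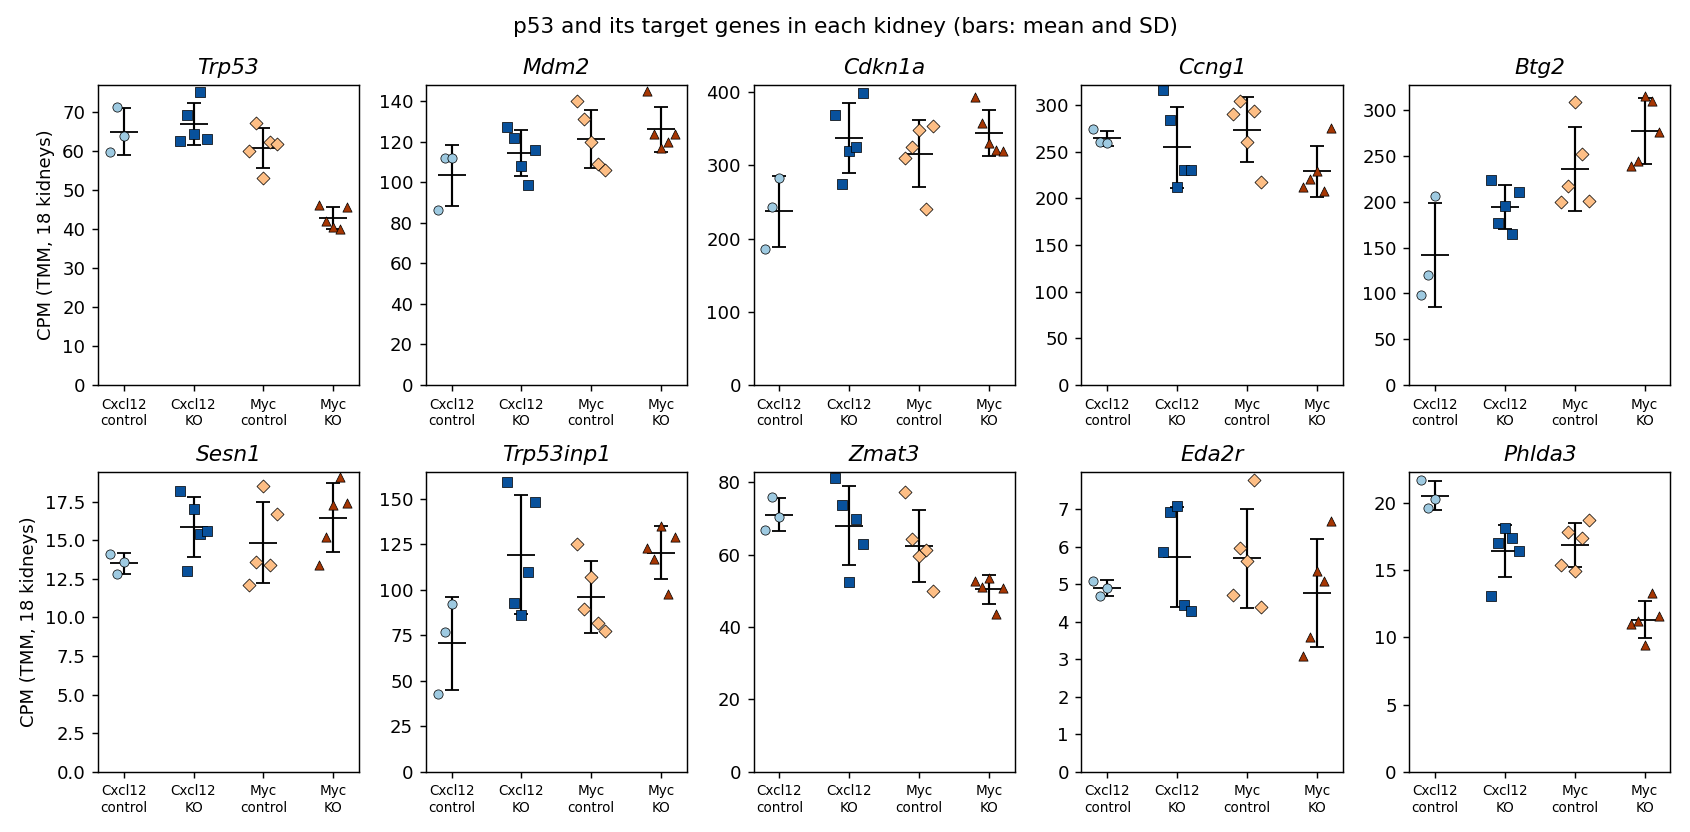
CPM of the 10 genes in each of the 18 kidneys (points) by group, with the group mean and SD as bars; each panel has its own linear axis from 0. For *Trp53* the 5 *Myc* KO kidneys (40.0 to 46.1 CPM) sit below all other kidneys, and for *Phlda3* they sit below the other groups except for 1 *Cxcl12* KO kidney at 13.1 CPM.

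The first comparison asks what loss of *Myc* in tubule cells changed in the injured kidney. *Trp53* and *Phlda3* fell in *Myc* KO kidneys, to 0.71 and 0.67 of the control level, and these were the only 2 of the 10 genes that passed the test. None of the others passed it, and their fold changes went both ways. *Cdkn1a*, *Mdm2* and *Sesn1* had mean levels 1.04 to 1.11 times those of the controls with edgeR adjusted p from 0.52 to 0.75. *Trp53inp1* and *Btg2* were at 1.25 and 1.18 times the control level (edgeR adjusted p 0.19 and 0.31). *Zmat3*, *Ccng1* and *Eda2r* were at 0.81, 0.84 and 0.85 of it (edgeR adjusted p 0.13, 0.21 and 0.56). The quasi-likelihood test of edgeR, adjusted by the Benjamini-Hochberg method over all genes, called 246 of the 14936 genes tested (1.65%), 0.355% higher and 1.29% lower in KO kidneys. At an unadjusted p under 0.05 stood 5 of the 10 genes and 21.9% of all genes.

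*Trp53* (ENSMUSG00000059552, GRCm38 chr11:69580359-69591873, plus strand) had 46.1, 42.1, 40.5, 40.0 and 45.5 CPM in *Myc* KO replicates 1 to 5. In *Myc* control replicates 1 to 5 it had 59.9, 67.0, 52.9, 62.3 and 61.8 CPM. Every KO kidney was below every control kidney. The means were 42.8 ± 2.84 and 60.8 ± 5.1 CPM (SD, n = 5 each), and the log2 fold change was -0.50 (SE 0.08, edgeR adjusted p = 0.014), the 36th smallest p of all genes. An exact two-sided permutation test gave an unadjusted p = 0.0079, the smallest that 5 against 5 kidneys allow. The call depended on single kidneys. The adjusted p of edgeR's test was 0.058 without *Myc* KO replicate 2, 0.055 without *Myc* KO replicate 3 and 0.051 without *Myc* control replicate 2, and 0.011 to 0.047 without each of the other 7. Without the 4 kidneys of this cohort that had under 5% unmapped reads, the log2 fold change was -0.57 with an adjusted p of 0.056.

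*Phlda3* (ENSMUSG00000041801, chr1:135766119-135769136, plus strand) had 11.0, 11.2, 9.46, 13.3 and 11.6 CPM in *Myc* KO replicates 1 to 5. In *Myc* control replicates 1 to 5 it had 15.4, 17.8, 14.9, 17.4 and 18.7 CPM. The highest KO kidney was again below the lowest control kidney. The means were 11.3 ± 1.39 and 16.9 ± 1.63 CPM (SD, n = 5 each), and the log2 fold change was -0.57 (SE 0.11, edgeR adjusted p = 0.028, unadjusted exact permutation p = 0.0079). Its adjusted p in edgeR's test passed 0.05 without *Myc* KO replicate 2 (0.078), *Myc* KO replicate 3 (0.089), *Myc* KO replicate 5 (0.064), *Myc* control replicate 2 (0.086), *Myc* control replicate 4 (0.058) or *Myc* control replicate 5 (0.06). It was 0.062 without the kidneys under 5% unmapped and 0.1 in the count column of the strand that gave the smaller change (-0.46), while the log2 fold change stayed between -0.68 and -0.46 in all 21 alternatives run. *Trp53* and *Phlda3* were the only 2 of the 10 genes whose KO and control kidneys did not overlap, both with KO lower, against 3.92% of all genes tested. This and the permutation tests use the same kidneys as edgeR's test and are not separate evidence.

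**Figure D2:**
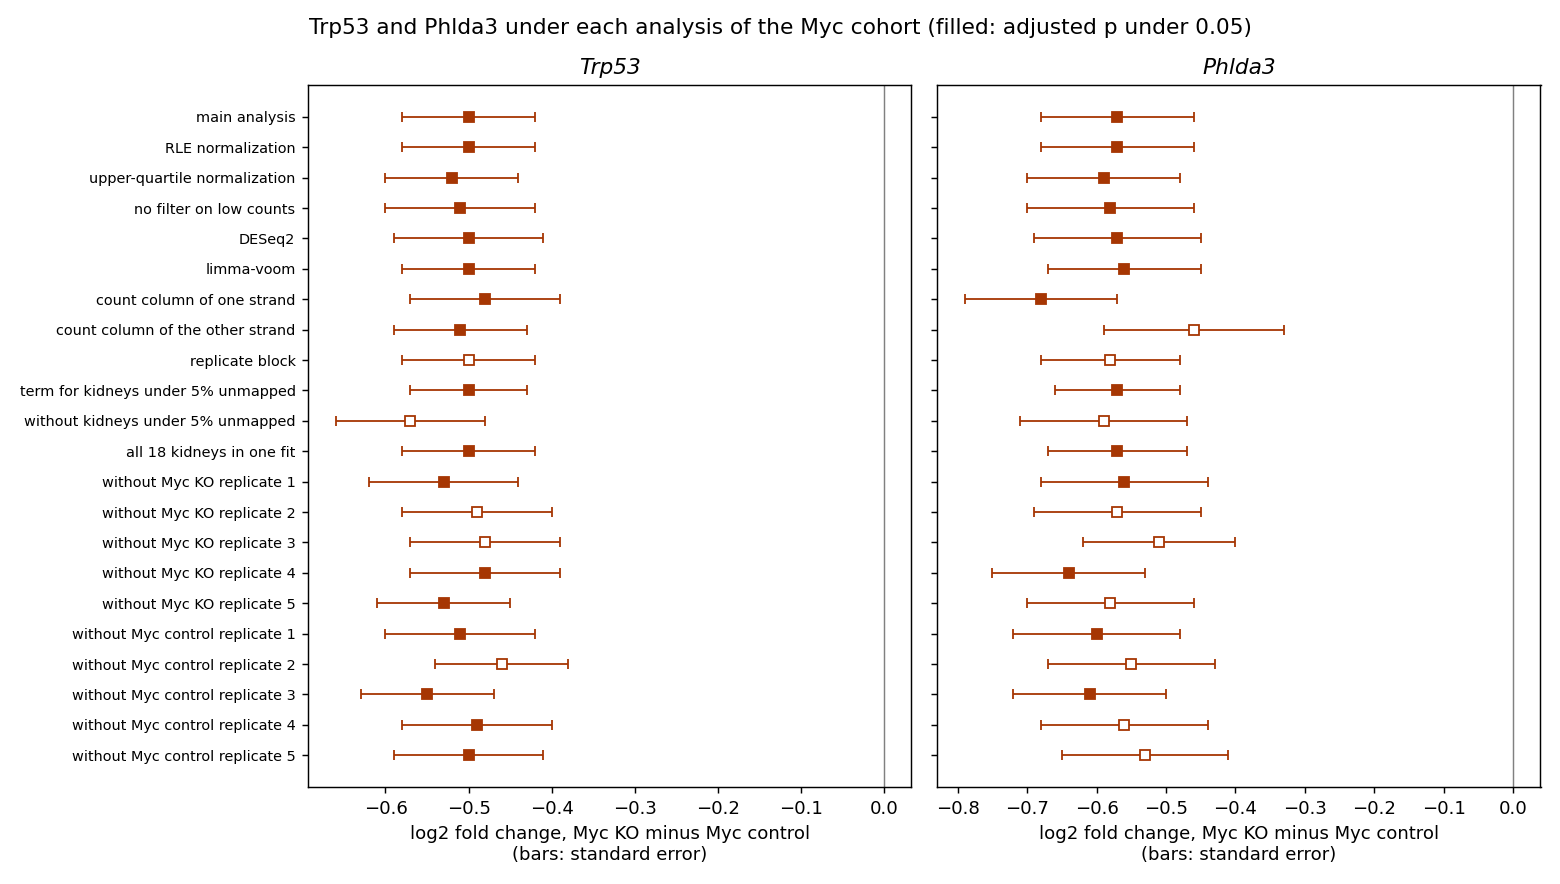
Log2 fold change of *Trp53* and *Phlda3* between *Myc* KO and *Myc* control kidneys (horizontal axis, bars are standard errors) in the reported analysis and 21 alternatives (rows); filled squares have an adjusted p under 0.05. *Trp53* lay between -0.57 and -0.46 throughout and lost the call in 5 alternatives, and *Phlda3* lay between -0.68 and -0.46 and lost it in 9.

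The other 8 genes did not pass the test in the *Myc* cohort. *Zmat3* had 43.6 to 53.5 CPM in KO and 49.9 to 77.4 CPM in the controls, a log2 fold change of -0.31 (SE 0.11, edgeR adjusted p = 0.13). All 5 KO kidneys were below the control mean, but 1 control kidney lay within the KO range. *Ccng1* had 208 to 275 CPM in KO and 218 to 304 CPM in control kidneys (log2 fold change -0.25, edgeR adjusted p = 0.21). *Trp53inp1* had 97.4 to 135 CPM in KO and 77.4 to 125 CPM in the controls, and the log2 fold change of 0.32 (SE 0.13, edgeR adjusted p = 0.19) reached an adjusted p of 0.042 when a term for the kidneys under 5% unmapped was fitted. *Btg2* had 239 to 316 CPM in KO and 200 to 309 CPM in control kidneys (0.24, edgeR adjusted p = 0.31). For both of these genes the 5 KO kidneys were above the control mean. *Eda2r* had 3.09 to 6.67 CPM in KO and 4.39 to 7.76 CPM in control kidneys (-0.23, SE 0.22, edgeR adjusted p = 0.56).

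*Cdkn1a* and *Mdm2* are the members most used to read p53 activity. *Cdkn1a* (ENSMUSG00000023067, chr17:29090976-29100727, plus strand) had 393, 358, 330, 321 and 319 CPM in *Myc* KO replicates 1 to 5 and 310, 325, 348, 240 and 354 CPM in *Myc* control replicates 1 to 5. The groups overlapped, with 4 of the 5 control kidneys at or above 310 CPM, and the log2 fold change was 0.13 (SE 0.11, edgeR adjusted p = 0.52). *Mdm2* (ENSMUSG00000020184, chr10:117688875-117710758, minus strand) had 117 to 145 CPM in KO and 106 to 140 CPM in the controls, for a log2 fold change of 0.06 (SE 0.09, edgeR adjusted p = 0.75). Over the 10 genes 5 fold changes were positive and 5 negative, with a median of -0.09 against -0.000832 over all genes tested.

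In whole kidney RNA, fewer cells of a type and less RNA per cell cannot be told apart, and the summed levels of cell type markers are given for both groups, with ranges that overlapped in each list named here. Summed levels of 10 leukocyte markers were 182 to 288 CPM in *Myc* KO and 96.6 to 256 CPM in *Myc* control kidneys, those of 5 podocyte markers 723 to 822 and 428 to 745 CPM, those of 5 endothelial markers 587 to 808 and 434 to 713 CPM, and those of 6 tubular injury markers 16589 to 25971 and 14253 to 22886 CPM. Proximal tubule markers summed to 3056 to 4820 CPM in KO and 3353 to 4059 CPM in control kidneys. Fold changes were positive for 6 of 7 leukocyte markers tested, 5 of 5 podocyte, 5 of 5 endothelial and 4 of 6 tubular injury markers, and no marker of these lists passed edgeR's test. In the leukocyte sum *S100a8* and *S100a9* averaged 51.1 and 76.9 CPM in KO and 32.8 and 48.9 CPM in control kidneys. The 1 leukocyte marker with a negative fold change was *Adgre1*, at 3.75 and 4.70 CPM (-0.32, SE 0.14, edgeR adjusted p = 0.22). Its groups were apart, as in 3.92% of all genes tested with KO lower. The injury sum was mostly *Spp1*, which encodes osteopontin (15301 CPM on average in KO and 12836 CPM in control kidneys). *Havcr1*, which encodes the injury marker KIM-1, lay the other way, at 203 and 507 CPM (log2 fold change -1.32, SE 0.43, edgeR adjusted p = 0.12). No marker was at 0 in a whole group. Their part in the levels of *Trp53* and *Phlda3* was not tested.

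The second comparison asks the same of *Cxcl12*. None of the 10 genes passed the test in *Cxcl12* KO kidneys, and neither did any other gene of the 15154 tested (0%) with edgeR's test, while 1976 (13%) had an unadjusted p under 0.05, as did 3 of the 10. DESeq2 called 353 genes, again with 0 of the 10 among them. *Trp53* itself was level between the groups, with 62.4 to 75.1 CPM in KO and 59.6 to 71.3 CPM in control kidneys (log2 fold change 0.04, SE 0.09, edgeR adjusted p = 0.9). The largest fold changes among the 10 were positive for *Trp53inp1*, *Cdkn1a* and *Btg2* and negative for *Phlda3*, and the 3 genes with an unadjusted p under 0.05 were *Cdkn1a*, *Phlda3* and *Trp53inp1*.

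*Cdkn1a* had 369, 275, 319, 325 and 399 CPM in *Cxcl12* KO replicates 1 to 5 and 186, 243 and 282 CPM in *Cxcl12* control replicates 1 to 3. Only KO replicate 2 lay within the control range. The means were 337 ± 47.8 (SD, n = 5) and 237 ± 48.5 CPM (SD, n = 3), and the log2 fold change was 0.51 (SE 0.15, edgeR adjusted p = 0.22, unadjusted exact permutation p = 0.036 where 0.018 is the smallest possible). Over all alternatives it lay between 0.36 and 0.65 and the adjusted p between 0.055 and 0.59, the lower bound being that of DESeq2.

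*Trp53inp1* (ENSMUSG00000028211, chr4:11156431-11174379, plus strand) had 159, 92.9, 86.0, 110 and 148 CPM in *Cxcl12* KO replicates 1 to 5 and 42.5, 76.7 and 92.2 CPM in *Cxcl12* control replicates 1 to 3. Its log2 fold change of 0.75 (SE 0.26, edgeR adjusted p = 0.28) was the largest of the 10 genes and rested in part on control replicate 1, the lowest of the 18 kidneys. Left out 1 at a time, kidneys moved the value between 0.49 (without control replicate 1) and 0.99 (without control replicate 3). *Btg2* had 165 to 224 CPM in KO kidneys and 98.6, 120 and 206 CPM in control replicates 1 to 3 (log2 fold change 0.45, SE 0.21, edgeR adjusted p = 0.39). The highest control kidney lay within the KO range, and the value was 0.25 without control replicate 1 and 0.82 without control replicate 3.

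*Phlda3* had 13.1, 17.0, 18.1, 17.4 and 16.4 CPM in *Cxcl12* KO replicates 1 to 5 and 21.7, 19.6 and 20.3 CPM in *Cxcl12* control replicates 1 to 3. All 5 KO kidneys lay below the 3 control kidneys, the only one of the 10 genes with groups apart in this cohort, against 4.72% of all genes tested in that direction. The log2 fold change was -0.33 (SE 0.12, edgeR adjusted p = 0.27, unadjusted exact permutation p = 0.018, the smallest possible). The remaining genes had smaller values. *Sesn1* (0.22), *Eda2r* (0.22), *Mdm2* (0.14), *Zmat3* (-0.06) and *Ccng1* (-0.06) had edgeR adjusted p-values from 0.46 to 0.88. Some of these values moved with the processing. With all kidneys or without those under 5% unmapped, the alternatives gave -0.25 to 0.01 for *Ccng1*, -0.21 to -0.05 for *Zmat3* and 0.08 to 0.43 for *Eda2r*. *Ccng1* was highest in KO replicates 1 and 2 (316 and 284 CPM), the kidneys of this cohort under 5% unmapped. Over the 10 genes the median log2 fold change was 0.18 against 0.000833 over all genes tested, with 7 positive and 3 negative.

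Summed markers of the *Cxcl12* cohort are given without a test of the sums. The 6 tubular injury markers summed to 14085 to 22063 CPM in *Cxcl12* KO and 11261 to 12787 CPM in *Cxcl12* control kidneys, with no overlap, and the 10 leukocyte markers to 70.5 to 164 and 60.7 to 65.6 CPM, also apart. The 5 proximal tubule markers summed to 3561 to 3988 CPM in KO and 4170 to 4868 CPM in control kidneys, again with no overlap, and the 5 erythroid markers to 36.1 to 163 and 12.5 to 65.3 CPM, which overlapped. Gene by gene, 1 of 6 injury and 2 of 7 leukocyte markers were apart with KO higher, against 4.96% of all genes tested. Of the proximal tubule markers 1 of 5 was apart with KO lower, against 4.72%. Fold changes were positive for 5 of 6 injury and 5 of 7 leukocyte markers tested and negative for 5 of 5 proximal tubule markers. The injury sum was mostly *Spp1* (13274 CPM on average in KO and 8895 CPM in control kidneys). The B cell marker *Cd79a* was at 0 in at least 1 *Cxcl12* KO kidney, and no marker was at 0 in a whole group. None of these markers passed edgeR's test, and their part in the levels of *Cdkn1a* and *Trp53inp1* was not tested.

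**Figure D3:**
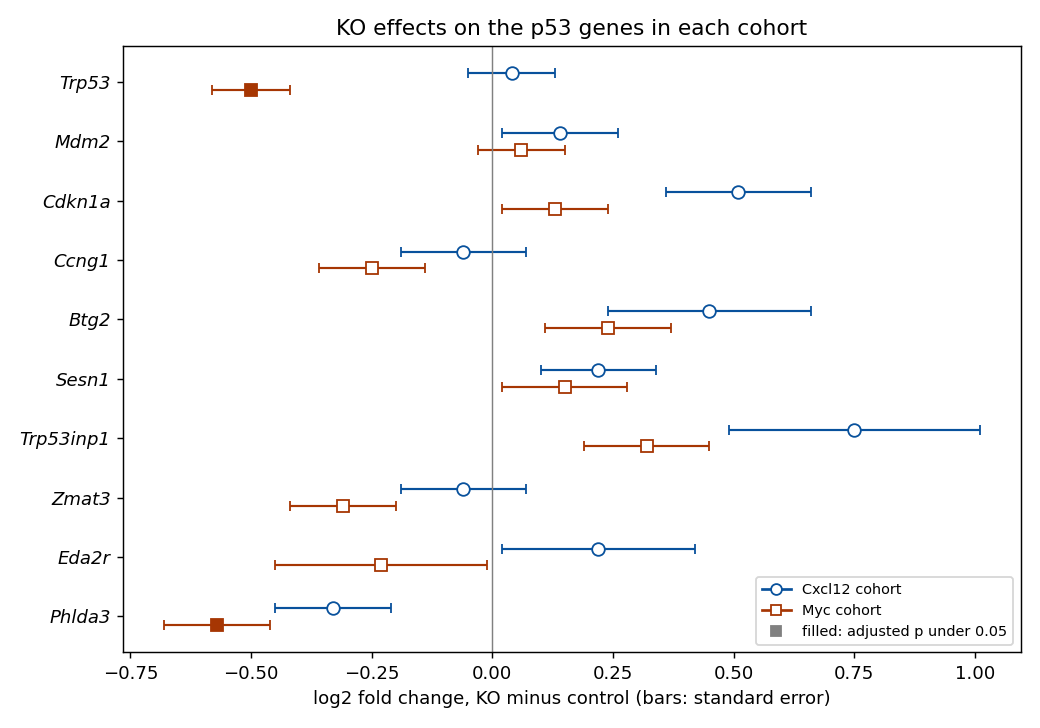
Log2 fold change, KO minus control, of the 10 genes (rows) in the *Cxcl12* cohort (blue circles) and the *Myc* cohort (red squares), with standard errors as bars; filled symbols have an adjusted p under 0.05. *Trp53* (-0.50) and *Phlda3* (-0.57) in the *Myc* cohort are the only filled symbols. Every *Myc* cohort value lies to the left of the *Cxcl12* cohort value of the same gene, but edgeR's test of the difference called 0 of the 10.

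The difference between the KO effects was tested over all 18 kidneys, as *Myc* KO effect minus *Cxcl12* KO effect. It called 11 of 15903 genes (0.0692%) and 0 of the 10. *Trp53* came nearest, with a log2 difference of -0.55 (SE 0.12, edgeR adjusted p = 0.064), and it passed with DESeq2 (adjusted p = 0.0021), with a term for the kidneys under 5% unmapped (0.031), without *Myc* KO replicate 5 (0.048) and without *Myc* control replicate 3 (0.045). A fall of *Trp53* in one cohort and not in the other is therefore not shown as a difference at the threshold used. For *Phlda3*, lower in the KO kidneys of both cohorts, the difference was -0.25 (SE 0.16, edgeR adjusted p = 0.62). For *Cdkn1a* it was -0.38 (SE 0.19, edgeR adjusted p = 0.47) and for *Trp53inp1* -0.44 (SE 0.30, adjusted p = 0.65). Both moved with single *Cxcl12* control kidneys, to -0.23 and -0.17 without replicate 1 and to -0.53 and -0.68 without replicate 3, and the difference for *Btg2* was -0.01 and -0.60 in the same fits. All 10 differences were below 0 with a median of -0.25 against -0.00653 over all genes tested, although those of *Mdm2* (-0.09) and *Sesn1* (-0.08) turned positive in some alternatives. The 10 values come from the same kidneys, so their signs are not independent. The share of all genes with a difference below 0 was not counted, and the 10 genes were not tested as a set.

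Other genes of the p53 network were read from lists of known regulators, paralogs and targets. In the *Cxcl12* cohort none passed edgeR's test. In the *Myc* cohort 3 of 78 did (3.85%, against 1.65% of all genes tested), 1 in each of 3 lists. *Aen*, a nuclease gene that p53 activates in apoptosis, fell with a log2 fold change of -0.48 (SE 0.07, edgeR adjusted p = 0.012), from 40.8 to 49.1 CPM in control to 30.4 to 34.9 CPM in KO kidneys. *Ccng2*, the paralog of *Ccng1* that is known as a FOXO target and the 1 called of 13 paralogs and partners tested, rose by 0.56 (SE 0.09, edgeR adjusted p = 0.014), from 30.4 to 40.8 CPM in control to 48.0 to 59.7 CPM in KO kidneys. *Notch1*, a signalling receptor gene listed among p53 targets, rose by 0.63 (SE 0.13, edgeR adjusted p = 0.031), from 39.3 to 64.0 CPM to 68.5 to 92.6 CPM. In all 3 the groups did not overlap, as in 3.92% of all genes tested with KO lower and 2.05% with KO higher. In the *Cxcl12* cohort *Ccng2* had 30 to 50.2 CPM in KO and 25.2 to 27.1 CPM in control kidneys, also apart as were 4.96% of all genes with KO higher, with a log2 fold change of 0.64 (SE 0.15, edgeR adjusted p = 0.12). Left out 1 at a time, *Myc* KO replicates 2 and 3 ended the call of *Aen* (adjusted p 0.052 and 0.051), *Myc* KO replicate 2 and *Myc* control replicate 2 that of *Ccng2* (0.06 and 0.051), and 6 kidneys that of *Notch1* (up to 0.099). Without the kidneys under 5% unmapped the adjusted p was 0.057 for *Aen*, 0.056 for *Ccng2* and 0.07 for *Notch1*, and that of *Notch1* was 0.055 in the count column of one strand.

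Among 10 other apoptosis targets of p53, 1 was called lower and 0 higher in the *Myc* cohort. Fold changes were negative for 7 and positive for 3. The groups were apart with KO lower for 3, against 3.92% of all genes tested, and with KO higher for 0, against 2.05%. *Pmaip1*, which encodes the BH3-only protein NOXA, had a log2 fold change of 0.73 (SE 0.19, edgeR adjusted p = 0.075) and *Apaf1*, the apoptosome scaffold, 0.32 (adjusted p = 0.14). In the *Cxcl12* cohort the same 2 genes had 0.82 (SE 0.26, edgeR adjusted p = 0.23) and 0.42 (SE 0.09, adjusted p = 0.11). The list median was -0.15 for loss of *Myc* and 0.01 for loss of *Cxcl12*. Of the 8 DNA repair targets none was called in either cohort, with medians of -0.00 and 0.02, *Gadd45a* showing the smallest p in both (0.49, adjusted p = 0.19, in the *Myc* cohort and 0.17, adjusted p = 0.7, in the *Cxcl12* cohort).

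Of 10 targets in arrest and signalling, *Notch1* was the 1 called. *Plk2*, a polo-like kinase gene, had log2 fold changes of 0.63 (SE 0.20, edgeR adjusted p = 0.12) after loss of *Myc* and 0.49 (SE 0.18, adjusted p = 0.29) after loss of *Cxcl12*. Of the 10 targets in metabolism and stress, 9 were tested in the *Myc* cohort and 0 called, with a median of -0.26. *Rps27l*, a ribosomal protein paralog that p53 activates, was nearest to the threshold (-0.39, SE 0.10, edgeR adjusted p = 0.064), and *Ephx1*, an epoxide hydrolase gene, had the largest difference of this list in the *Cxcl12* cohort (-0.90, SE 0.27, edgeR adjusted p = 0.22).

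Regulators of p53 were tested for 19 of 21 genes, and 0 were called in either cohort. In the *Myc* cohort the coactivator gene *Ep300* (0.32, edgeR adjusted p = 0.12), *Hipk2*, which encodes a kinase of p53 (0.39, adjusted p = 0.12), and the checkpoint kinase gene *Chek2* (-0.58, adjusted p = 0.13) had the smallest p. In the *Cxcl12* cohort these were *Ppp1r13l*, which encodes the p53 inhibitor iASPP (0.36, edgeR adjusted p = 0.25), the DNA damage kinase gene *Atm* (-0.42, adjusted p = 0.28) and *Trp63* (-0.76, adjusted p = 0.38). Cell cycle genes that p53 represses through p21 and the DREAM complex were 16, of which 13 passed the filter in the *Cxcl12* cohort and 12 in the other. None was called, and the medians were -0.57 and -0.17, with 11 of 13 and 9 of 12 fold changes below 0. The first of these medians rested on *Cxcl12* control replicate 1. Without that kidney it was 0.24 with 4 of 13 fold changes below 0, and *Top2a*, which encodes a topoisomerase of dividing cells and was picked as an example after its values were seen, had 11.8 CPM there against 1.45 and 2.93 CPM in the other control kidneys and 1.8 to 4 CPM in KO kidneys. *E2f1* had the smallest p in the *Cxcl12* cohort (-0.78, SE 0.26, edgeR adjusted p = 0.25, and -0.42 without that kidney). In the *Myc* cohort it was *Bub1b*, with a change in the other direction (0.64, SE 0.21, edgeR adjusted p = 0.12).

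**Figure D4:**
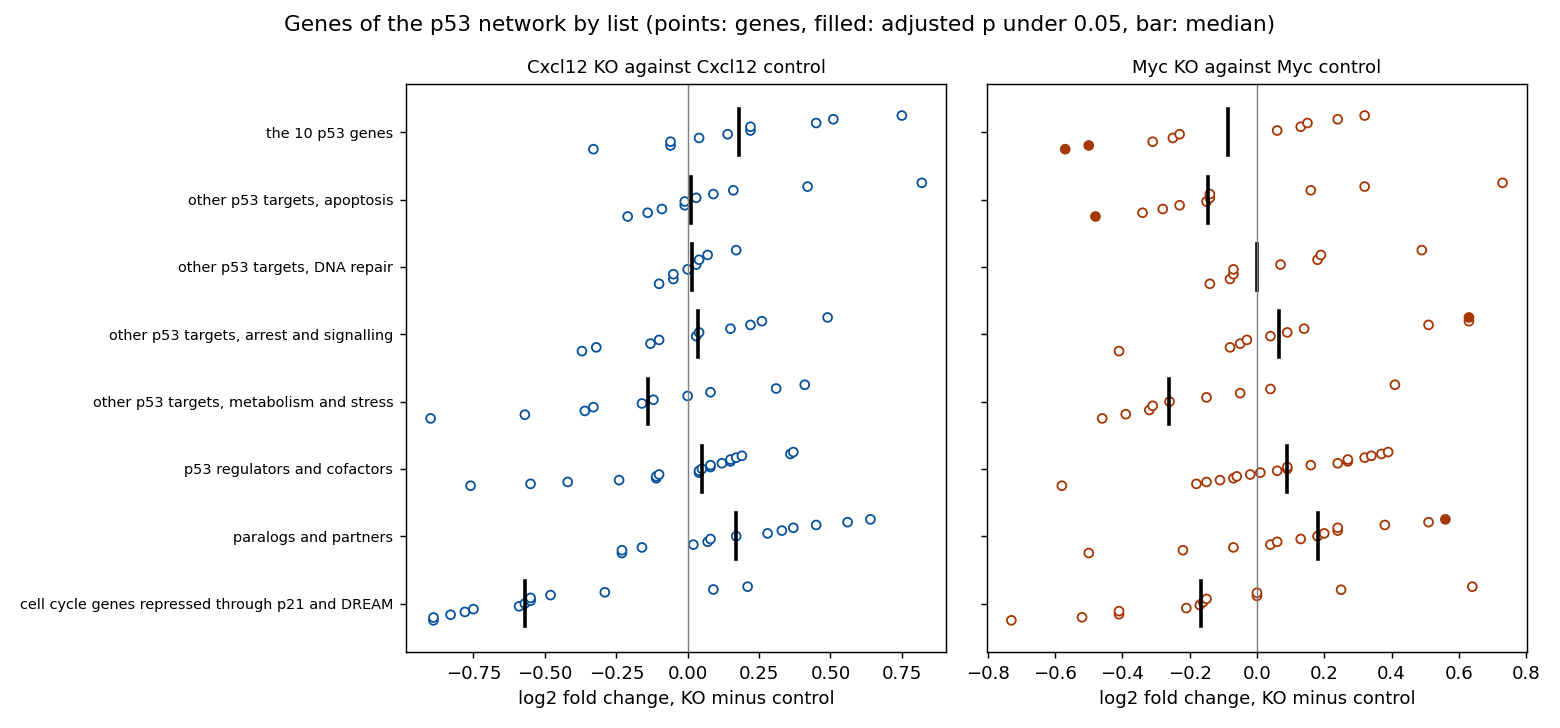
Log2 fold change, KO minus control, of each tested gene of the p53 network lists (rows) in the *Cxcl12* cohort (left) and the *Myc* cohort (right); a point is a gene, a filled point has an adjusted p under 0.05 and the black bar is the list median. The 10 p53 genes have medians of 0.18 (left) and -0.09 (right), and the median of the cell cycle genes in the *Cxcl12* cohort (-0.57) was 0.24 without *Cxcl12* control replicate 1.

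Genes under a common activator can vary together between animals, so the other 9 genes were correlated with *Cdkn1a* on log2 CPM over the kidneys. Over all 18 kidneys *Trp53inp1* reached a Pearson r of 0.81 with a Spearman rho of 0.62 (permutation p = 0.00012 and 0.0067, adjusted over the 9 relations 0.0011 and 0.06). *Btg2* had r = 0.64 and rho = 0.41 (permutation p = 0.0057 and 0.09, adjusted 0.026 and 0.16) and *Mdm2* r = 0.61 and rho = 0.37 (permutation p = 0.0094 and 0.13, adjusted 0.027 and 0.2). *Phlda3* ran the other way, with r = -0.57 and rho = -0.58 (permutation p = 0.012 and 0.013, adjusted 0.027 and 0.06). *Trp53* itself had r = -0.31 and rho = -0.26 (permutation p = 0.22 and 0.3). By rank none of the 9 passed after adjustment. How many of all genes correlated with *Cdkn1a* to the same degree was not counted. The relations are therefore not shown to be particular to p53 targets.

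These relations rested on few kidneys. The 2 kidneys farthest from the median of *Cdkn1a* were *Cxcl12* control replicate 1 and *Myc* control replicate 4, both low, and without them r was 0.60 for *Trp53inp1* (permutation p = 0.013, adjusted 0.12), 0.53 for *Btg2*, 0.25 for *Mdm2* and -0.47 for *Phlda3*, and none passed after adjustment. Within the *Cxcl12* cohort (n = 8) r was 0.96 for *Trp53inp1* (exact permutation p = 0.0006, adjusted 0.0054) and 0.89 for *Btg2* (exact permutation p = 0.0029, adjusted 0.013), while by rank neither passed (adjusted p 0.065 and 0.084, exact permutation test). Within the *Myc* cohort (n = 10) r was 0.36 for *Trp53inp1* and -0.04 for *Btg2*, and only *Eda2r* passed, with r = -0.81 and rho = -0.73 (permutation p = 0.0033 and 0.02, adjusted 0.029 and 0.18). In the 6 kidneys under 5% unmapped none passed, and in the other 12 r was 0.87 for *Trp53inp1*, 0.67 for *Mdm2*, 0.65 for *Btg2* and -0.63 for both *Phlda3* and *Ccng1*, each passing after adjustment, while by rank those of *Trp53inp1* (rho = 0.78), *Eda2r* (-0.71) and *Phlda3* (-0.70) passed and those of *Mdm2*, *Btg2* and *Ccng1* did not (adjusted permutation p 0.13, 0.33 and 0.27). With each group centred on its mean, *Trp53inp1* (r = 0.65, rho = 0.62, permutation p = 0.0034 and 0.0064, adjusted 0.023 and 0.029) and *Eda2r* (r = -0.63, rho = -0.74, permutation p = 0.005 and 0.00092, adjusted 0.023 and 0.0083) passed on both measures.

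**Figure D5:**
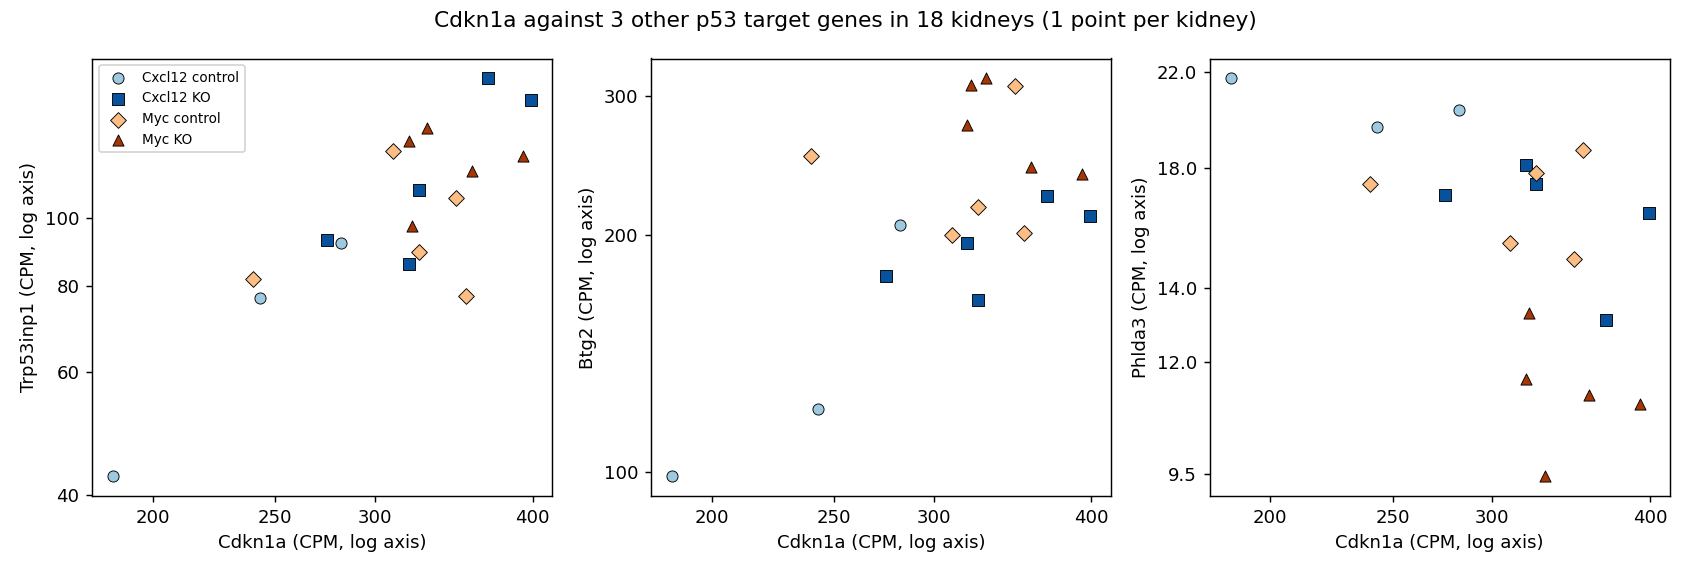
CPM of *Trp53inp1*, *Btg2* and *Phlda3* (vertical, log axes) against CPM of *Cdkn1a* (horizontal, log axis) in the 18 kidneys; a point is a kidney and its shape and colour give the group. The kidney at the lower left of the first 2 panels, with 186 CPM of *Cdkn1a*, is *Cxcl12* control replicate 1, and the 5 *Myc* KO kidneys lie at the bottom of the *Phlda3* panel (9.46 to 13.3 CPM).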

How the data were processed

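The authors trimmed reads with Trimmomatic 0.32, used STAR 2.4.0 to align them to GRCm38 and to count them (versions per the submitters' processing notes), and deposited raw counts without normalization. The column that ignores the strand was used, since both strand columns held nearly equal counts. Gene names, positions and exon lengths came from GENCODE vM21 (45143 of 45706 ids named), and promoter windows from RefSeq on GRCm38.p6.

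Within a cohort, genes were kept by filterByExpr, libraries were scaled by TMM, and groups were compared in R 4.3.3 with edgeR 4.0.16 (quasi-likelihood test), with Benjamini-Hochberg adjustment over all genes and a threshold of 0.05. Dividing a log2 fold change by the root of its F statistic gave its SE. The difference of KO effects was fitted over 18 kidneys. Exact permutation tests were two-sided and used log2 CPM (prior count 2), and correlations used 100000 permutations, or all of them below 10 kidneys. Alternatives used DESeq2 1.42.0 and limma 3.58.1, and the code was tested on simulated data. The methods call the mice littermates, but neither labels nor methods say that replicate numbers pair the kidneys, and they were not taken as pairs. Tables and figures used matplotlib 3.10.9, scipy 1.17.1, pandas 2.3.3 and numpy 2.4.6 under Python 3.11.15. The E-box search was added after the data were seen.

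The 10 genes and all lists were chosen with earlier results of these data known. The text names the 10 genes, both targeted genes, any list gene with an adjusted p under 0.05 and up to 3 list genes of smallest p per cohort.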

Additional observations from a re-analysis of the deposited data

Results flagged for a closer look

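In groups of 5 kidneys, each of the 10 genes was searched for a kidney whose gap to its nearest neighbour exceeded 0.71 of the range of the group, which is Dixon's 95% critical value. Of 30 combinations of gene and group, 2 were found, and chance alone gives about 1 in 20. *Mdm2* had 145 CPM in *Myc* KO replicate 1 and 117 to 124 CPM in the other 4 *Myc* KO kidneys, a gap of 0.741 of the range. *Zmat3* had 43.6 CPM in *Myc* KO replicate 4 and 50.9 to 53.5 CPM in the other 4, a gap of 0.737 of the range. The KO effect on *Mdm2* in the *Myc* cohort was 0.06 with all kidneys and between 0.0 and 0.12 with 1 kidney left out, and that on *Zmat3* was -0.31 and between -0.38 and -0.22. Neither gene passed edgeR's test in any of these fits.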

How the results depend on the processing

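Over the fits that left out 1 kidney, the genes called in all numbered 0 to 15 in the *Cxcl12* cohort (0 with all kidneys), 21 to 877 in the *Myc* cohort (246) and 1 to 75 for the difference of KO effects (11). The extremes in the *Myc* cohort were without *Myc* KO replicate 2 and without *Myc* control replicate 3. The 10 genes gave 0 calls in the *Cxcl12* cohort in every fit run and, with 1 kidney left out, 0 to 2 in the *Myc* cohort and 0 to 1 for the difference. The replicate number as a block left 0 of the 10 genes called in the *Myc* cohort (adjusted p 0.052 for *Trp53* and 0.058 for *Phlda3*), with 18 genes called in all and 1 for the difference, and gave a log2 fold change of 0.01 for *Ccng1* in the *Cxcl12* cohort (adjusted p 0.97). It also ended the calls of *Aen* and *Ccng2* (0.051 each) and *Notch1* (0.074). KO and control kidneys with the same number correlated at a mean of 0.068 (-0.0321 to 0.134, 3 pairs) in the *Cxcl12* cohort. In the *Myc* cohort the mean was 0.053 (-0.211 to 0.402, 5 pairs). With different numbers the means were -0.017 (-0.131 to 0.191, 12 pairs) and -0.011 (-0.522 to 0.479, 20 pairs). So few pairs neither show nor exclude pairing, and the numbers were not taken as pairs. DESeq2 called 353, 1131 (485 higher and 646 lower, against 53 and 193) and 324 genes in the *Cxcl12* cohort, the *Myc* cohort and the difference, with 1 of the 10 genes in the difference, *Trp53*. A term for the kidneys under 5% unmapped gave 123, 954 (363 higher and 591 lower) and 133, with *Trp53* as the 1 of the 10 genes in the difference and 3 of the 10 in the *Myc* cohort, *Trp53inp1* being added. Without those kidneys 80, 8 (4 and 4) and 44 were called, 0 of the 10 in the *Myc* cohort, and *Mdm2* had a log2 difference of 0.13 between KO effects. All 18 kidneys in one fit gave 25 and 683 (218 and 465). No filter gave 214 in the *Cxcl12* cohort. The count column of one strand gave 9 in the *Cxcl12* cohort and 4 in the difference. That of the other strand gave 1 of the 10 in the *Myc* cohort, where 181 of 14620 genes were called. It also gave 7 in the difference and a log2 difference of 0.09 for *Sesn1*. Upper-quartile scaling gave 6 and limma-voom 3 in the difference. With 1 kidney left out, *Trp53* (-0.02 to 0.11), *Ccng1* (-0.15 to 0.00) and *Zmat3* (-0.14 to 0.01) in the *Cxcl12* cohort and *Mdm2* (-0.16 to 0.03) and *Sesn1* (-0.15 to 0.02) in the difference changed sign (log2 values). The members correlated with *Cdkn1a* by Pearson r numbered 4 over 18 kidneys, 2 in the *Cxcl12* cohort, 1 in the *Myc* cohort, 0 in the kidneys under 5% unmapped, 0 without the 2 farthest kidneys and 2 after centring. The share of all genes correlated with *Cdkn1a* was not computed for any of these sets. The cause of these changes was not tested. Effects on *Eda2r*, *Phlda3* and *Sesn1* rest on as few as 39, 139 and 169 reads per kidney.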
